A study of Danio rerio with 2 samples.

Results

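The cytochromes P450 are haem enzymes that insert oxygen into small molecules, and their genes are named cyp with a family number. Every locus of the deposited table with a symbol of cyp followed by a digit was taken, which gave 75 of 40114 loci. They carry 77 such symbols, because 2 loci join a pair of P450 copies. The RNA came from zebrafish larvae at 5 days post-fertilization (dpf). One pool of 20 whole bodies was homozygous for lri12, and the other held 20 whole wild-type clutch-mates. The gene behind lri12 is not given in the labels, so the genotype could not be checked on its target. Each genotype is 1 pool of undivided bodies.

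P450 enzymes fall into groups by what they act on. Families 1 to 3 are best known for clearing drugs, pollutants and plant compounds in liver and gut, and many members of families 2 and 4 also oxidise fatty acids. The other families mostly make or break signalling lipids: steroid hormones, bile acids, retinoic acid and vitamin D. Enzymes of the endoplasmic reticulum take electrons from the reductase encoded by por, and those of mitochondria take them from ferredoxin.

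Levels are in FPKM, a unit that corrects for the length of a transcript and the size of a library, so genes can be set beside each other. Differences and folds are between mutant FPKM + 1 and wild-type FPKM + 1, as log2 ratios or their linear size, and so come out smaller for low genes. Only genes averaging 1 FPKM or more over the pools entered, as 60 of the 75 P450 loci did. Of these 60, cyp1b1, cyp2x8 and cyp17a2 were below 1 FPKM in the mutant pool. With 1 pool per genotype there is no spread between replicates and no test, and differences of 1.2-fold and 2-fold were used as rules of size. Depth is unknown in absolute terms. Among 1285 loci below 0.1 FPKM, the log2 mutant to wild-type ratio found most often was -0.14, which equal numbers of reads would give at 1.10 mutant reads for each wild-type read.

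P450 transcripts were on balance less abundant in the mutant pool, and a smaller number of genes were more abundant. Summed over all 75 loci they came to 630 FPKM in the mutant pool and 870 FPKM in the wild-type pool, 27.7% lower. Of the 60 genes, 20 were at least 1.2-fold lower and 8 at least 1.2-fold higher, while 32 lay within 1.2-fold. Over all 18664 named genes that entered, 7.39% were at least 1.2-fold lower and 5.9% at least 1.2-fold higher, against 33.3% and 13.3% of the P450 genes. At the 2-fold rule, 3 P450 genes were lower and 2 higher, 5.0% and 3.33% of the 60, against 0.439% and 0.289% of all named genes. The median log2 difference was -0.12 for P450 genes and 0.004 for all named genes. With no filter on low values the counts at both rules were the same as with it. The 2-fold counts could not have differed. The P450 loci that did not enter reached at most 0.903 FPKM, too low for 2-fold once 1 FPKM is added. The 2-fold counts were 5 lower and 4 higher with a pseudocount of 0.1, and 3 lower and 0 higher with one of 5. The background moved as well. Of all 18664 named genes, 134 were at least 2-fold lower and 72 higher with 0.1, and 40 and 22 with 5. Among the 37 P450 genes with a mean of 5 FPKM or more, the median was -0.26, with 18 at least 1.2-fold lower and 3 higher. That is 48.6% and 8.11%, against 7.35% and 5.84% of all named genes at that level.

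**Figure D1:**
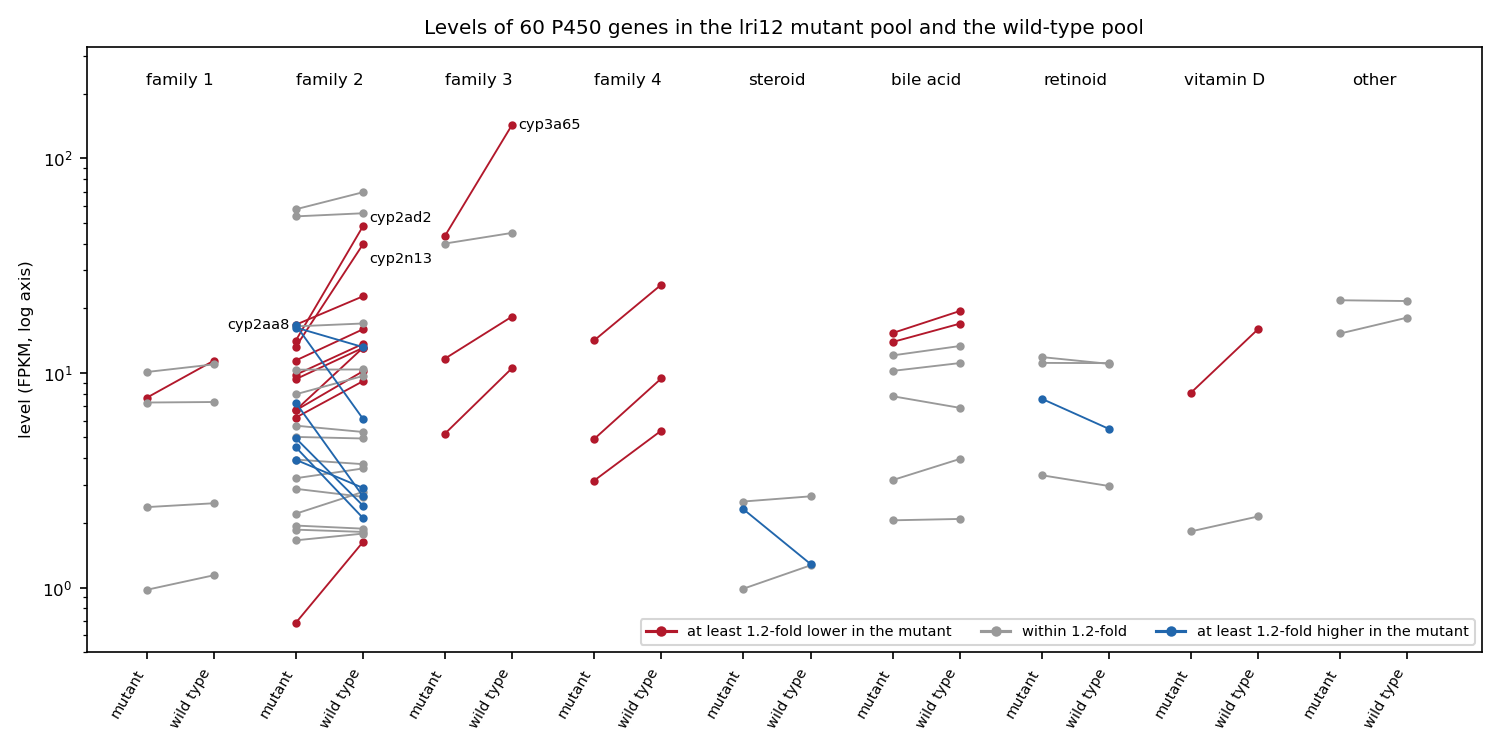
Levels of the 60 P450 genes that entered, in FPKM on a log axis, by class. Each line joins the value of 1 gene in the mutant pool (left) and the wild-type pool (right). Every line of families 3 and 4 is higher on the wild-type side, as were 9084 of all 18664 named genes. The line of cyp3a65 spans 43.5 FPKM in the mutant pool and 143 FPKM in the wild-type pool.

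The difference in the sum lay largely in the 3 genes that were at least 2-fold lower. They were picked by that rule, which favours a large part of the difference, and more abundant genes such as cyp2ad3 and cyp3c1 were not among them. cyp3a65 alone made up 41.5% of the difference of 241 FPKM between the pools, and it made up 66.6% together with cyp2ad2 and cyp2n13. Without these 3 genes the other 72 loci summed to 559 FPKM in the mutant pool and 639 FPKM in the wild-type pool, 12.6% lower. The order of abundance differed accordingly. In the mutant pool the highest P450 gene was cyp2ad3 at 57.8 FPKM, followed by the locus of cyp2y3 at 53.6 FPKM and cyp3a65 at 43.5 FPKM. In the wild-type pool cyp3a65 was highest at 143 FPKM, ahead of cyp2ad3 at 69.5 FPKM and cyp2y3 at 55.4 FPKM. The balance of lower and higher genes varied with their level. Of 7 P450 genes with a mean of 20 FPKM or more, 3 were at least 1.2-fold lower and 0 higher, against 9.16% and 6.58% of all genes at that level. Of 30 P450 genes with a mean of 5 to 20 FPKM, 15 were at least 1.2-fold lower and 3 at least 1.2-fold higher, against 6.46% and 5.48% of all genes at that level. Of 23 with a mean of 1 to 5 FPKM, 2 were lower and 5 higher by that rule, against 7.46% and 5.99% of all genes at that level. Those 5 were cyp17a1 and the genes cyp2aa2, cyp2aa3, cyp2aa4 and cyp2aa9, which lie near each other on chromosome 23. For these cyp2aa genes, level and position cannot be told apart.

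Family 1, whose best-known member cyp1a is induced through the aryl hydrocarbon receptor by dioxins and polycyclic aromatic compounds, differed little apart from that gene. cyp1a (chromosome 18, 4974675 to 4985566) stood at 7.65 FPKM in the mutant pool and 11.4 FPKM in the wild-type pool, 1.43-fold lower. The other 4 genes lay within 1.2-fold. cyp1d1, whose human counterpart is a pseudogene, stood at 10.1 and 10.96 FPKM in the mutant and wild-type pools, and cyp1b1 at 0.975 and 1.14 FPKM. The paired genes cyp1c1 and cyp1c2 stood at 7.28 and 2.37 FPKM in the mutant pool and at 7.32 and 2.47 FPKM in the wild-type pool. All 5 log2 differences were below 0, from -0.52 to -0.007, and the median was -0.11. Of all 18664 named genes that entered, 9084 were below 0.

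Family 2 is the largest family in fish and held both the lowest and the highest differences of all P450 genes. Of its 35 loci 30 entered, with 10 at least 1.2-fold lower, 6 at least 1.2-fold higher and 14 within 1.2-fold. The shares lower and higher were 33.3% and 20%, against 7.39% and 5.9% of all named genes. The median log2 difference was -0.06, or -0.42 among genes with a mean of 5 FPKM or more, and the extremes were -1.70 and 1.31. Most of these genes lie in tandem runs, in which neighbours are copies of each other. How the authors' program divided reads between similar copies is not given in the sources used here, so single copies are less certain than the sum of a run.

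A run of 11 P450 loci on chromosome 20 (25544872 to 25645409), which holds the cyp2n, cyp2ad, cyp2v, cyp2p and cyp2j genes related to the human fatty acid epoxygenase CYP2J2, was lower in the mutant pool. The 10 genes that entered summed to 152 FPKM in the mutant pool and 242 FPKM in the wild-type pool. Of these 10, 6 were at least 1.2-fold lower, 0 were at least 1.2-fold higher, and the median log2 difference was -0.43. The share lower was 60%, against 7.39% of all named genes. cyp2ad2 (25564275 to 25571790) stood at 14.1 FPKM in the mutant pool and 48.2 FPKM in the wild-type pool, 3.25-fold lower. cyp2n13 (25544872 to 25552516) stood at 13.2 and 39.7 FPKM in the mutant and wild-type pools, 2.86-fold lower. These 2 genes flank cyp2ad6, which differed less, at 6.19 FPKM in the mutant pool and 9.15 FPKM in the wild-type pool.

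The rest of the chromosome 20 run fell into a moderately lower group and a group near 0. Among the cyp2p copies, cyp2p8 stood at 16.8 and 22.7 FPKM in the mutant and wild-type pools. cyp2p9 stood at 11.4 and 16.0 FPKM, and cyp2p6 at 9.35 and 13.1 FPKM. These 3 copies had nearly the same difference, 1.34-fold to 1.37-fold lower. Next to them cyp2p10 stood at 5.03 and 4.95 FPKM, and cyp2p7, at 0.669 and 0.723 FPKM, did not enter. The most abundant gene of the run, cyp2ad3, stood at 57.8 FPKM in the mutant pool and 69.5 FPKM in the wild-type pool, just inside 1.2-fold. cyp2v1, directly after it, stood at 16.5 and 16.99 FPKM, and cyp2j20, whose span overlaps 2 other gene models, at 1.86 and 1.82 FPKM.

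The run on chromosome 23 (42648038 to 43024136), made up of cyp2ae1 and the cyp2aa genes, a subfamily of fishes, contained the only P450 genes at least 2-fold higher in the mutant pool. It held 5 of the 8 P450 genes that were at least 1.2-fold higher. These 5 made up 55.6% of the 9 genes of the run with a cyp symbol, against 5.9% of all named genes. By the same rule 1 gene of the run was lower, or 11.1%, against 7.39% of all named genes. cyp2aa8 (42910749 to 42919521) stood at 16.7 FPKM in the mutant pool and 6.12 FPKM in the wild-type pool, 2.49-fold higher. Its neighbour cyp2aa9 (42888155 to 42901803) stood at 7.27 FPKM in the mutant pool and 2.67 FPKM in the wild-type pool, 2.26-fold higher. In the same run, cyp2aa4 stood at 4.97 and 2.41 FPKM and cyp2aa3 at 4.51 and 2.11 FPKM in the mutant and wild-type pools. Both were higher in the mutant pool, by 1.75-fold and 1.77-fold. cyp2aa4 lies next to cyp2aa8, while cyp2aa2 and cyp2aa1 lie between cyp2aa3 and the pair. Together these 4 copies, grouped after their values were seen, came to 33.5 FPKM in the mutant pool and 13.3 FPKM in the wild-type pool. The whole run differed less. Its 9 genes with a cyp symbol, all of which entered, summed to 59.96 FPKM in the mutant pool and 44.06 FPKM in the wild-type pool. Their median log2 difference was 0.34. These values leave out si:ch73-73d17.3, which lies in the run and which RefSeq names cyp2aa6. It stood at 22.4 and 19.3 FPKM in the mutant and wild-type pools. With a pseudocount of 5, cyp2aa8 and cyp2aa9 came under 2-fold, at 0.97 and 0.68 on the log2 scale.

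The cyp2aa subfamily did not move as a block. cyp2aa2 stood at 3.94 FPKM in the mutant pool and 2.91 FPKM in the wild-type pool, 1.26-fold higher. cyp2aa7, in a locus joined with 1 other gene model, stood at 2.88 and 2.65 FPKM, and cyp2ae1 at 1.94 and 1.88 FPKM, both within 1.2-fold. The 2 remaining copies were lower in the mutant pool. cyp2aa12, at the end of the run, stood at 9.80 and 13.6 FPKM in the mutant and wild-type pools, 1.36-fold lower. cyp2aa1, which lies between cyp2aa2 and cyp2aa9, stood at 7.95 and 9.67 FPKM, within 1.2-fold. The copies lower in the mutant pool were the 2 most abundant of the named cyp2aa genes in the wild-type pool. In the mutant pool cyp2aa8 was the most abundant of the named genes. The copy listed as si:ch73-73d17.3 was more abundant than all of these in either pool, with a log2 difference of 0.20.

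**Figure D2:**
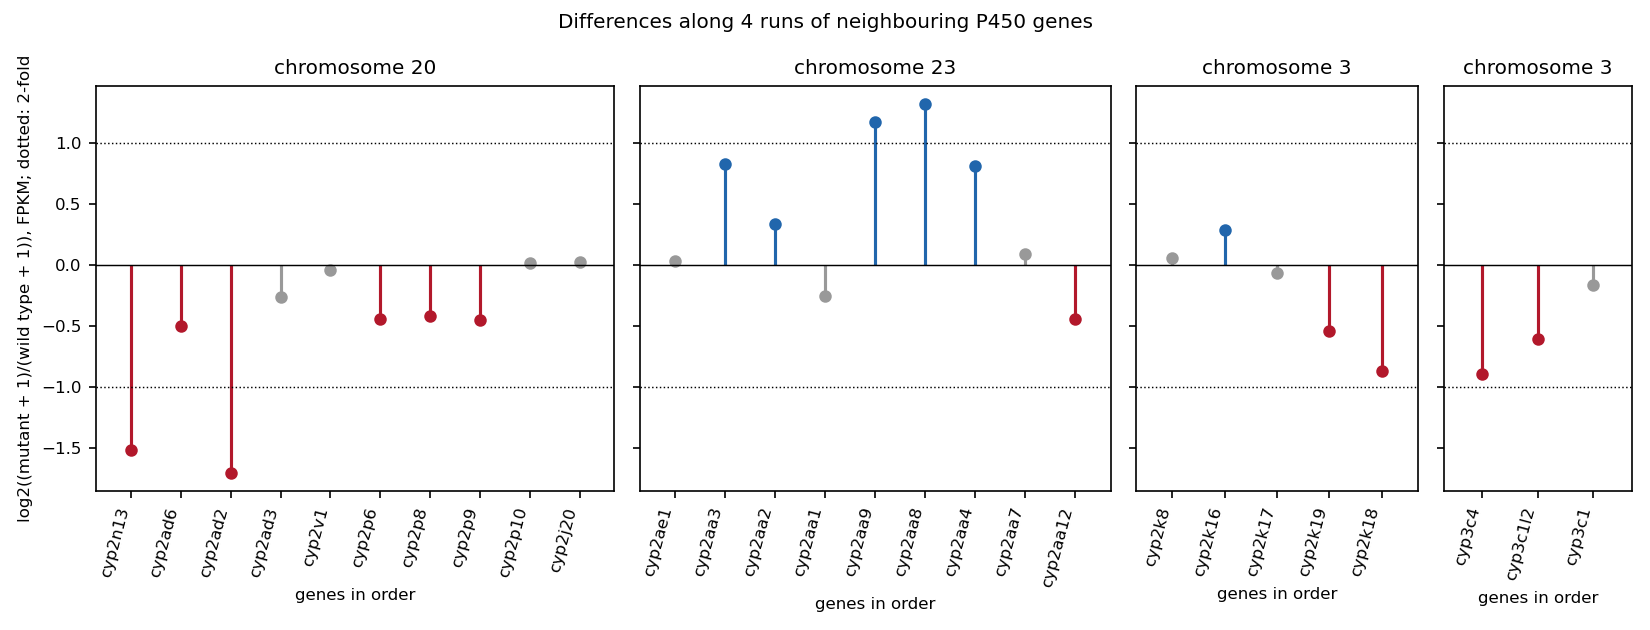
Log2 differences, mutant over wild type on the log2(FPKM + 1) scale, of the P450 genes that entered in 4 runs of neighbouring genes, in their order along the chromosome. Red marks genes at least 1.2-fold lower in the mutant pool, blue at least 1.2-fold higher and grey those between. The chromosome 20 run reaches -1.70 at cyp2ad2, and the chromosome 23 run reaches 1.31 at cyp2aa8.

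Other members of family 2 varied in both directions. In the cyp2k run on chromosome 3 (12440710 to 12556762), cyp2k18 stood at 6.70 FPKM in the mutant pool and 13.1 FPKM in the wild-type pool, 1.83-fold lower. cyp2k19 stood at 6.69 and 10.2 FPKM in the mutant and wild-type pools. These lie at 1 end of the run, and cyp2k16, nearer the other end, was 1.22-fold higher at 16.3 and 13.2 FPKM. cyp2k8 stood at 3.95 and 3.76 FPKM in the mutant and wild-type pools. cyp2x8 stood at 0.684 and 1.63 FPKM in the mutant and wild-type pools, 1.56-fold lower (-0.64, or -1.14 with a pseudocount of 0.1). Its deposited span on chromosome 25 is identical to that of cyp2x6, cyp2x7, cnot1 and setd6, and the authors' deposited table gives it a q of 0.999. cyp2x9, just past that span, stood at 10.4 FPKM in both pools.

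Family 2 genes outside these runs were close to equal between the pools. cyp2r1, which makes the circulating form of vitamin D, stood at 5.68 FPKM in the mutant pool and 5.31 FPKM in the wild-type pool. cyp2u1, a fatty acid hydroxylase in humans, stood at 2.21 and 2.79 FPKM, 1.18-fold lower. The abundant cyp2y3 locus, joined with a clone-based symbol, stood at 53.6 FPKM in the mutant pool and 55.4 FPKM in the wild-type pool. The 10 family 2 genes that lay between the 10 lowest and the 10 highest had log2 differences from -0.26 to 0.02.

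Family 3 was lower in the mutant pool in all 4 genes, against 9084 of all 18664 named genes, with a median log2 difference of -0.75. At least 1.2-fold lower were 3 of the 4, or 75%, against 7.39% of all named genes. The family 3 sum was 100 FPKM in the mutant pool and 217 FPKM in the wild-type pool. cyp3a65 (chromosome 1, 60208588 to 60218577), the zebrafish relative of the main human drug-metabolising enzyme CYP3A4 and expressed in larval gut and liver, stood at 43.5 and 143 FPKM in the mutant and wild-type pools, 3.24-fold lower. The cyp3c genes lie apart from it, in a run on chromosome 3 (40930875 to 40971364). There cyp3c4 stood at 5.21 FPKM in the mutant pool and 10.5 FPKM in the wild-type pool, 1.86-fold lower, and cyp3c1l2 at 11.7 and 18.3 FPKM, 1.53-fold lower. cyp3c1, the most abundant of the run, stood at 40.1 FPKM in the mutant pool and 44.9 FPKM in the wild-type pool, within 1.2-fold. cyp3a65 and cyp3c1 were at almost the same level in the mutant pool, where the wild-type pool had them far apart.

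Family 4, the fatty acid omega-hydroxylases, was lower in each of the 3 genes that entered, with a median log2 difference of -0.82, or -0.54 with a pseudocount of 5. All 3 were at least 1.2-fold lower, or 100%, against 7.39% of all named genes. cyp4v2 (chromosome 1, 16642200 to 16654540), whose human counterpart is mutated in Bietti crystalline dystrophy of the retina, stood at 14.2 FPKM in the mutant pool and 25.8 FPKM in the wild-type pool, 1.76-fold lower. cyp4t8 stood at 4.92 and 9.42 FPKM in the mutant and wild-type pools, also 1.76-fold lower. cyp4v7, a second relative of human CYP4V2, stood at 3.15 and 5.38 FPKM, 1.54-fold lower. cyp4f3, named for a human enzyme that inactivates leukotrienes, stood at 0.509 and 0.522 FPKM and did not enter.

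**Figure D3:**
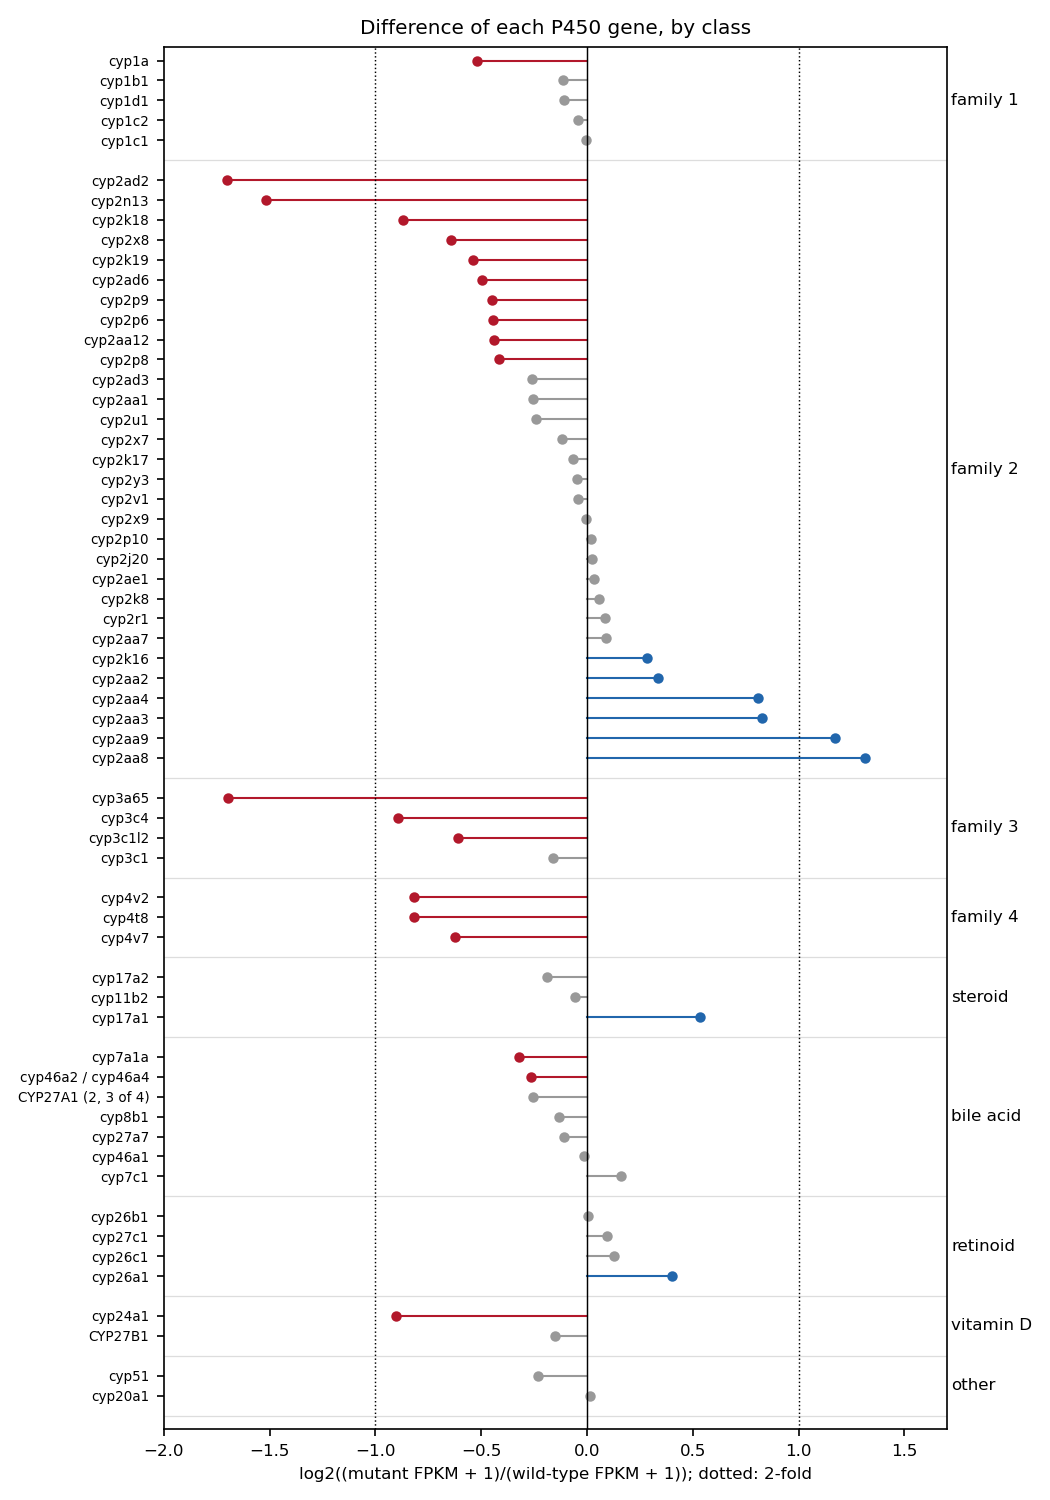
Log2 difference, mutant over wild type on the log2(FPKM + 1) scale, of each of the 60 P450 genes that entered, by class. Red marks genes at least 1.2-fold lower in the mutant pool, blue at least 1.2-fold higher and grey those between. All 7 genes of families 3 and 4 that entered lie below 0, as do 9084 of all 18664 named genes, and cyp2aa8 reaches 1.31.

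Steroid hormone P450s were near the limit of what whole bodies show. Of 8 loci 3 entered. cyp17a1, the hydroxylase and lyase on the path to androgens, stood at 2.32 FPKM in the mutant pool and 1.29 FPKM in the wild-type pool, 1.45-fold higher. Its relative cyp17a2 stood at 0.987 and 1.27 FPKM in the mutant and wild-type pools. The locus listed as cyp11b2, which RefSeq names cyp11c1 and which carries out the last step of cortisol synthesis, stood at 2.52 and 2.66 FPKM. The other steroid loci lay below 1 FPKM in both pools. Named for the enzyme that starts steroid synthesis by cleaving the cholesterol side chain, CYP11A1 (1 of 2) and cyp11a1 are neighbouring loci on chromosome 25. In that order they stood at 0.458 and 0.067 FPKM in the mutant pool and 0.620 and 0.011 FPKM in the wild-type pool. CYP21A2, needed for cortisol, stood at 0.736 and 0.903 FPKM in the mutant and wild-type pools. The ovarian aromatase cyp19a1a stood at 0.081 and 0.113 FPKM and the brain aromatase cyp19a1b at 0.152 and 0.087 FPKM, both marked as too low to test in the authors' deposited table.

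P450s of bile acid and oxysterol synthesis differed by at most 1.25-fold. Of 11 loci 7 entered, with 2 at least 1.2-fold lower, 0 at least 1.2-fold higher and a median log2 difference of -0.13. The share lower was 28.6%, against 7.39% of all named genes. cyp7a1a (chromosome 2, 21946656 to 21949389), the rate-limiting enzyme of bile acid synthesis, stood at 15.3 FPKM in the mutant pool and 19.4 FPKM in the wild-type pool, 1.25-fold lower. cyp8b1, the sterol hydroxylase that sets which bile acids are made, stood at 12.1 and 13.3 FPKM in the mutant and wild-type pools. Both therefore lay far closer to equality than cyp3a65. The mitochondrial sterol hydroxylase cyp27a7 stood at 10.2 and 11.1 FPKM, and a locus that joins 2 further CYP27A1 copies at 3.17 and 3.97 FPKM. cyp7c1 was the member above 0, at 7.79 and 6.87 FPKM. The locus joining cyp46a2 and cyp46a4, relatives of the brain enzyme that clears cholesterol from neurons, stood at 13.9 FPKM in the mutant pool and 16.95 FPKM in the wild-type pool, 1.203-fold lower, and cyp46a1 at 2.06 and 2.09 FPKM.

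Retinoid P450s differed by at most 1.32-fold between the pools, with 1 of 4 at least 1.2-fold higher and 3 within 1.2-fold. The share higher was 25%, against 5.9% of all named genes. cyp26a1 (chromosome 12, 9708962 to 9712555), which breaks down retinoic acid and is itself induced by it, stood at 7.57 FPKM in the mutant pool and 5.48 FPKM in the wild-type pool, 1.32-fold higher. The related enzymes cyp26b1 and cyp26c1 stood at 11.1 and 3.33 FPKM in the mutant pool and at 11.1 and 2.97 FPKM in the wild-type pool. cyp27c1, which in zebrafish makes the vitamin A form of red-shifted vision, shares its locus with the DNA repair helicase gene ercc3, and the joint value was 11.8 FPKM in the mutant pool and 11.02 FPKM in the wild-type pool. The median log2 difference of these 4 loci was 0.11.

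The 2 vitamin D loci differed from each other. cyp24a1 (chromosome 6, 55692361 to 55705674), which inactivates vitamin D and is a direct target of its receptor, stood at 8.09 FPKM in the mutant pool and 16.0 FPKM in the wild-type pool, 1.87-fold lower. CYP27B1, which makes the active hormone, stood at 1.83 and 2.14 FPKM in the mutant and wild-type pools, within 1.2-fold. Outside these classes, cyp51, the sterol demethylase of cholesterol synthesis, stood at 15.3 and 18.1 FPKM, 1.17-fold lower. cyp20a1, an enzyme whose substrate is not known, stood at 21.8 FPKM in the mutant pool and 21.6 FPKM in the wild-type pool.

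In the authors' deposited table, 7 of the 75 P450 loci had a q under 0.05, with 5 lower and 2 higher in the mutant pool. Over all 31308 tested loci the shares were 0.233% lower and 0.115% higher. The authors' deposited table gives a q of 0.017 to cyp3a65, cyp2ad2, cyp2n13, cyp2aa8 and cyp2aa9, of 0.031 to cyp3c4 and of 0.043 to cyp24a1. Next in the authors' deposited table came cyp2k18 at 0.085, cyp2aa3 at 0.135 and cyp2aa4 at 0.139. Of the 75 P450 loci 69 were marked tested, which is the number to set beside the 31308. With 1 pool per genotype behind them, the authors' q-values hold nothing on how clutches or pools vary.

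Genes that serve P450 enzymes differed about as often as all named genes did. Of 22 genes for electron donors and haem supply that entered, 2 were at least 1.2-fold lower, 2 at least 1.2-fold higher and 18 between, with a median log2 difference of 0.05. The share between was 81.8%, against 86.7% of all named genes. The reductase gene por, named for its role after its value was seen, stood at 22.2 FPKM in the mutant pool and 20.8 FPKM in the wild-type pool. The members furthest apart were the steroidogenic ferredoxin fdx1b, at 0.804 and 1.51 FPKM in the mutant and wild-type pools, and alas1, the first enzyme of haem synthesis, at 62.8 and 81.8 FPKM. On the higher side were cyb5b, a cytochrome b5, at 18.1 and 14.4 FPKM, and hmbsa, also of haem synthesis, at 11.8 and 9.50 FPKM.

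Receptors and factors known to regulate P450 genes likewise lay near the background. Of 33 that entered, 30 lay within 1.2-fold, or 90.9% against 86.7% of all named genes, and the median log2 difference was 0.002. The transcripts of the xenobiotic receptors, named after their values were seen, were near equality. ahr2, known to induce cyp1a, stood at 10.7 and 10.4 FPKM in the mutant and wild-type pools, and nr1i2, known to induce cyp3a65, at 7.32 and 7.62 FPKM. Receptor activity was not measured, and a part of either receptor in the differences of cyp1a and cyp3a65 was not tested. The 3 outside 1.2-fold were nr5a5, a relative of the steroidogenic factors, at 2.61 and 9.05 FPKM in the mutant and wild-type pools, the oestrogen receptor esr2b at 1.37 and 1.99 FPKM, and cebpb, a factor of the acute phase and fat storage, at 66.5 and 36.4 FPKM.

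Partners in the pathways of the lipid-specific P450s were counted by the same rules. Of those that entered, 29.4% of bile acid, 26.5% of retinoid, 40.0% of vitamin D and 14.3% of steroid partners were at least 1.2-fold lower. The share of all named genes was 7.39%. At least 1.2-fold higher were 11.8%, 11.8%, 6.67% and 0% in the same order, against 5.9% of all named genes. The genes past 1.2-fold include carriers, transporters and enzymes. Of 17 bile acid partners that entered, 5 were at least 1.2-fold lower and 2 at least 1.2-fold higher, with a median log2 difference of -0.14. The lowest were the ileal bile acid binding protein fabp6, at 146 and 330 FPKM in the mutant and wild-type pools, and the export pump abcb11b at 1.87 and 3.73 FPKM. The uptake transporter slc10a1 was higher, at 4.11 and 3.04 FPKM, as was the hormone fgf19, which represses bile acid synthesis, at 2.05 and 1.46 FPKM. Of 34 retinoid partners 9 were at least 1.2-fold lower and 4 at least 1.2-fold higher, with a median of -0.04. Among them the plasma carrier ttr stood at 45.9 and 81.2 FPKM, the gut retinol binding protein rbp2a at 191 and 329 FPKM and crabp1b, which binds retinoic acid in cells, at 16.1 and 12.5 FPKM in the mutant and wild-type pools. Of 15 vitamin D partners 6 were at least 1.2-fold lower and 1 at least 1.2-fold higher, with a median of -0.08. The vitamin D binding protein gene gc stood at 37.4 and 82.1 FPKM, while the phosphate transporter slc34a2b was higher at 11.7 and 8.88 FPKM. Of 14 steroid partners 2 were at least 1.2-fold lower and 0 at least 1.2-fold higher, with a median of -0.07. These were star, which carries cholesterol into mitochondria, at 6.23 and 8.41 FPKM, and srd5a2a, a steroid reductase, at 38.2 and 48.5 FPKM.

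Markers of organs that express P450 genes also differed between the pools, and their part in the P450 differences was not tested. The marker lists share genes with the partner lists above, and such genes are counted in both. Among them, fabp6 and rbp2a are also enterocyte markers, ttr and gc hepatocyte markers, and star and fdx1b interrenal markers. In whole bodies, fewer cells of a type and less RNA per cell cannot be told apart. Of 16 enterocyte markers that entered, 14 were at least 1.2-fold lower in the mutant pool and 1 at least 1.2-fold higher. That is 87.5% and 6.25%, against 7.39% and 5.9% of all named genes. The enterocyte median log2 difference was -0.81, with a sum of 1466 FPKM in the mutant pool and 2616 FPKM in the wild-type pool. Of 23 hepatocyte markers 10 were at least 1.2-fold lower and 1 higher, or 43.5% and 4.35%, with a median of -0.22. At the 2-fold rule 5 were lower, or 21.7% against 0.439% of all named genes, and 1 was higher. The hepatocyte sums were 11349 and 11715 FPKM in the mutant and wild-type pools. A large part of both sums was 1 marker, zgc:193613, at 5768 and 4944 FPKM. Exocrine pancreas markers were at least 1.2-fold lower in 14 of 14, or 100%, with a median of -1.20 and sums of 4711 and 10785 FPKM. The 1 hepatocyte marker counted as higher was a serpina1 locus, listed at 0 in the wild-type pool and at 2.27 FPKM in the mutant pool. The far more abundant locus joining serpina1 and serpina1l was 1.58-fold lower, at 230 and 364 FPKM in the mutant and wild-type pools.

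The lists of 3 further tissues were small. A count of 1 in them cannot be told from the shares of all named genes, 7.39% lower and 5.9% higher. Of 9 pronephros markers 1 was at least 1.2-fold lower and 1 higher, with a median of -0.06 and sums of 151 and 197 FPKM in the mutant and wild-type pools. Of 6 radial glia markers 0 were lower and 1 higher by that rule, with a median of 0.07 and sums of 868 and 772 FPKM. Of 9 entries in the interrenal list, the tissue of cortisol synthesis, 3 genes entered, all at least 1.2-fold lower. Their median was -0.38, with sums of 11.03 and 15.3 FPKM. Genes that did not enter lay on both sides of 0, and without the filter the median was -0.11. Among them mrap was higher in the mutant pool, at 0.973 and 0.435 FPKM. The corticotropin receptor mc2r was listed at 0.070 FPKM in the mutant pool and at 0 in the wild-type pool.

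**Figure D4:**
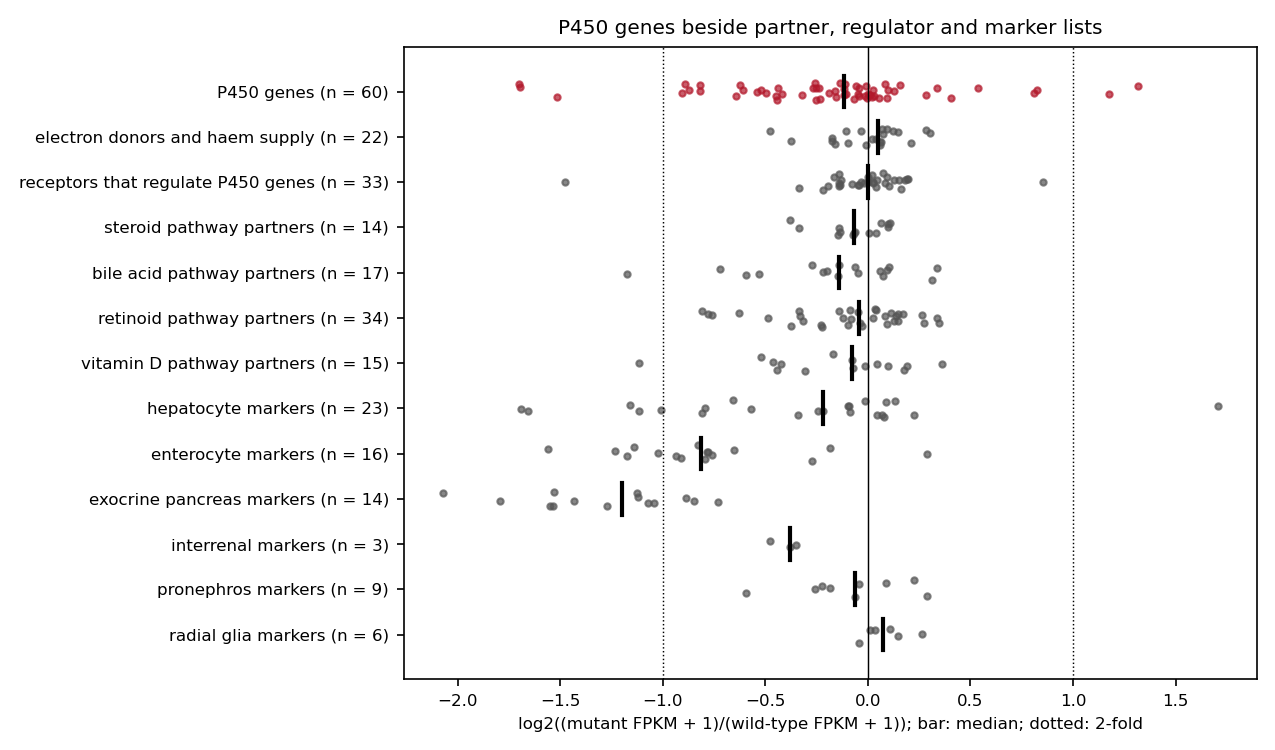
Log2 differences, mutant over wild type on the log2(FPKM + 1) scale, of the P450 genes (red) and of partner, regulator and marker lists (grey). Points are genes that entered and bars are medians. The P450 genes spread from -1.70 to 1.31 around a median of -0.12, and the enterocyte markers lie around -0.81.

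Of the 15 P450 loci that did not enter, none exceeded 0.903 FPKM in either pool. cyp2k22 was listed at 0 in both pools, and no P450 locus was listed at 0 in 1 pool alone. The others include cyp2k6 at 0.280 and 0.362 FPKM, the oxysterol hydroxylase gene cyp39a1 at 0.393 and 0.475 FPKM and the copies cyp8b2 and cyp8b3 beside cyp8b1. At these levels a difference between the pools could not be read.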

How the data were processed

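RNA was sequenced from 2 pools of 20 whole larvae at 5 dpf, 1 per genotype. CASAVA, Bowtie and the build Zv9 were used per the submitters' processing notes, without versions. Per the file headers, the deposited table has the columns of a Cuffdiff comparison, and the authors' values were read as FPKM on that ground, since no label states the unit. The authors' deposited p-values and q-values come from 1 pool against 1 pool and were quoted only. How strand, annotation and multi-mapping reads were handled is not given in the sources used here. Coordinates are given as deposited, on Zv9.

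The table was read with pandas 2.3.3 in Python 3.11.15. The 19 loci marked as failed or overloaded and the 8509 without a symbol were left out. Loci with the same symbol were summed to 27458 genes, and a locus with several symbols counted as 1. The P450 rule ignored letter case. Classes follow family numbers, with cyp27 divided into bile acid (a), vitamin D (b) and retinoid (c) genes. A run was 3 or more P450 loci with gaps of at most 200000 bases. Of 269 list entries, 217 matched as written, 24 through RefSeq synonyms (assembly GRCz12tu, names only) and 28 not at all.

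Levels are given for each gene that entered outside family 2. In family 2 they are given for the 10 lowest, the 10 highest and the 5 most abundant, and others named were added after their values were seen. In each partner list up to 2 genes per direction are named. Members and lists were chosen with earlier results of these data known. Alternatives were a pseudocount of 0.1 or 5, dropping the filter or raising it to 5 FPKM, rescaling to a median of 0, the highest locus, tested loci only, no joined loci and lower-case symbols only.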

Additional observations from a re-analysis of the deposited data

How the results depend on the processing

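Each value comes from 1 pool per genotype, so leaving out a replicate was not possible. No paired analysis was possible because each genotype has 1 pool. The counts depended on how low values were handled. Under a pseudocount of 0.1, 5 P450 genes were at least 2-fold lower and 4 higher, with cyp3c4 (-1.001), cyp2x8 (-1.14), cyp2aa3 (1.06) and cyp2aa4 (1.01) added. The 2-fold counts over all 18664 named genes were 134 lower and 72 higher with 0.1, and 40 and 22 with 5. With a pseudocount of 5, 0 were at least 2-fold higher (cyp2aa8 at 0.97 and cyp2aa9 at 0.68) and 4 at least 1.2-fold higher. The medians were then -0.54 for family 3, -0.54 for family 4, -0.37 for vitamin D and -0.21 for interrenal markers. With a mean of at least 5 FPKM, 1 gene was at least 2-fold and 3 at least 1.2-fold higher, and the medians were -0.26 for P450 genes, -0.42 for family 2 and -0.90 for vitamin D. Vitamin D was also at -0.90 with lower-case symbols only, since 1 gene was left. Without a filter interrenal markers had a median of -0.11. A pseudocount shrinks or widens low differences by its construction, and a filter leaves fewer genes. The other 217 counts and medians moved by at most 1.5 times or under 0.1. Several alternatives could hardly move a P450 gene. Each P450 gene is a single locus, those that entered were all marked tested, and the rescaling was -0.005 on the log2 scale. Dropping the filter could not add to the 2-fold counts of P450 genes, because those left out were too low. A pseudocount or filter cannot change the direction of a gene, so these alternatives did not test direction.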

Other observations

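Some P450 genes are listed under symbols that do not start with cyp and so were not among the 75 loci. RefSeq synonyms tie 2 such loci to P450 genes. One is si:ch73-73d17.3, which RefSeq names cyp2aa6 and which lies within the chromosome 23 run between cyp2aa7 and cyp2aa12. It stood at 22.4 FPKM in the mutant pool and 19.3 FPKM in the wild-type pool, 0.20 on the log2 scale, and was more abundant than any named cyp2aa gene in either pool. The other is si:dkey-91i10.3, named cyp27a3 by RefSeq, at 8.11 and 8.35 FPKM. Among prostanoid-forming P450s, tbxas1, thromboxane synthase, stood at 7.35 FPKM in the mutant pool and 9.95 FPKM in the wild-type pool, -0.39 on the log2 scale, and ptgis, prostacyclin synthase, at 4.07 and 4.40 FPKM.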
